A study of Homo sapiens with 8 samples.

Results

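TAZ binding was examined at 10 genes that govern the G1 phase of the cell cycle, in MCF10A, an immortalised but non-tumorigenic line of human breast epithelium. The genes were the D-type cyclins CCND1, CCND2 and CCND3, the E-type cyclins CCNE1 and CCNE2, the kinases CDK2, CDK4 and CDK6, and the inhibitors CDKN1A (p21) and CDKN1B (p27). All 10 were found among the 20033 protein-coding genes of GENCODE version 44. A peak was assigned to a gene when its summit fell no more than 100 kb away from a transcription start site (TSS) of that gene, every annotated transcript being used. This gave 143 of the 55334 peaks in the 4 lists. They comprised 6 of 2431 peaks without doxycycline (Dox), 8 of 2469 after 24 h, 33 of 11767 after 48 h and 96 of 38667 after 72 h.

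All cells carried TAZ-4SA under Dox control, a mutant of the co-activator TAZ with higher activity, and they were grown in serum with EGF and insulin, also in the cultures without Dox. The groups were cells without Dox and cells kept for 24, 48 or 72 h with 0.05 µg/ml Dox. The antibody recognises TAZ, so endogenous and induced protein are not told apart by the label. Each list came from 1 TAZ library, and 1 IgG library per condition is labelled with the same list. No replicate exists, so differences between times are differences between single libraries and carry no test.

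In G1, D-type cyclins bind CDK4 or CDK6 and E-type cyclins bind CDK2, and these kinases phosphorylate the retinoblastoma protein, which releases E2F factors and commits the cell to DNA replication. CDKN1A and CDKN1B bind and inhibit cyclin-CDK complexes, mainly those of CDK2. CCND1 is a gene of mammary growth signalling, and CDKN1A is a known target of p53. TAZ has no DNA-binding domain and is brought to DNA mainly by TEAD factors, whose sites contain CATTCC, or GGAATG on the other strand. AP-1 factors, which often bind beside TEAD, recognise TGANTCA.

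Several of the strongest distal sites at these genes carried such sequences. Shown here are 5 of the 8 intronic or intergenic regions over 3 kb from the gene's TSS that reached a fold enrichment of at least 20 after 72 h, each as the summit base with 100 bases on either side, on the hg38 plus strand. Capitals mark the TEAD consensus on either strand and the AP-1 consensus. Distances are from the TSS of the canonical transcript.
CCND1, 73.1 kb upstream, intergenic, chr11:69567970-69568170: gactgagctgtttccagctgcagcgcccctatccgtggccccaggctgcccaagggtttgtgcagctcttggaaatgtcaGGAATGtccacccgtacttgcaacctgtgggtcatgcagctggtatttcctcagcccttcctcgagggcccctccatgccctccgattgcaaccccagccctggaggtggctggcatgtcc
CCND1, 4.5 kb upstream, intergenic, chr11:69636593-69636793: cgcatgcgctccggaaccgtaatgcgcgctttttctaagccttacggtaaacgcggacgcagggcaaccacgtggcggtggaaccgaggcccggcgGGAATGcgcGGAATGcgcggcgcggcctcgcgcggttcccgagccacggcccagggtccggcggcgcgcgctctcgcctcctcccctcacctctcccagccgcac
CCND1, 103.4 kb downstream, intergenic, chr11:69744487-69744687: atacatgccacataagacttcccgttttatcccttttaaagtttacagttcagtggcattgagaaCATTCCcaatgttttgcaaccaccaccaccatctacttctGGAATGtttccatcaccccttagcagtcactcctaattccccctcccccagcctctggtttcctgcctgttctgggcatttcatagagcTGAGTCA
CCND3, 179.8 kb upstream, intron of C6orf132, chr6:42121532-42121732: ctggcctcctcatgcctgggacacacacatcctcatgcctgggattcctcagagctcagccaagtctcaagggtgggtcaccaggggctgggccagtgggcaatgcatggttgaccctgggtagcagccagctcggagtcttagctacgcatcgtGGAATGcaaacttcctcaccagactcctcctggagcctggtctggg
CDKN1A, 46.9 kb upstream, intergenic, chr6:36631668-36631868: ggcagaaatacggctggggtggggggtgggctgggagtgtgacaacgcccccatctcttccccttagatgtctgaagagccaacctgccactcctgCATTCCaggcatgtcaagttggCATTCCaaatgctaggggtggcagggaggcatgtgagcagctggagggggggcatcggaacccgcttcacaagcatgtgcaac
A TEAD consensus was present in each of these 5 windows, and a pair of them in 3. An AP-1 consensus was present in 1, that of CCND1 103.4 kb downstream. Over all 8 regions that met the rule, 7 held a TEAD consensus, 1 held none, and 2 held an AP-1 consensus. In the CCND1 site 4.5 kb upstream, the pair lay on the same strand with starts 9 bp apart, and the summit fell inside the nearer copy. The CDKN1A site 46.9 kb upstream also held a same-strand pair, with starts 22 bp apart and the summit inside the nearer copy. Among all peaks at 72 h over 3 kb from any TSS, 44% of such windows held the TEAD consensus and 27.1% held TGANTCA, so a match is common. These shares cover peaks of any fold enrichment. None was computed for peaks of at least 20 or for pairs.

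The 4 lists differed in their lowest background and in the height that a peak needed to be called, which bears on every count below. Fold enrichment is the authors' ratio of the ChIP pileup at a summit to its local background. The lowest background of a list was 1.49 fragments without Dox, 1.42 after 24 h, 2.84 after 48 h and 2.01 after 72 h. At that background a summit needed a fold enrichment of about 4.01, 4.14, 3.38 and 3.33 to be listed. Established TAZ targets carried promoter peaks, with fold enrichments for AMOTL2 of 8.09, 14.2, 21.8 and 61.3 over the 4 lists, and for CCN2 of 16.8 after 24 h, 19.9 after 48 h and 37.9 after 72 h, with no call without Dox. CCN1 was called in every list, with 5.22, 9.09, 16.4 and 38.7. A peak list holds no expression values, so the cell type itself could not be checked.

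The first question was at which of the 10 genes TAZ was bound near a TSS, and when. Promoter binding was called for CDK6 and CDKN1A without Dox, for CCND1 alone at 24 h, for CCND1, CCND3, CDK2 and CDK6 after 48 h, and for all but CCNE1 after 72 h. A promoter peak was taken as a summit within 3 kb of any TSS of the gene. Thus 2 of the 10 genes had a promoter peak without Dox, against 9.4% of all protein-coding genes. At 24 h the count was 1 gene (2.55% of all), at 48 h it was 4 (9.09%) and at 72 h it was 9 (58.4%). With 1 TSS per gene, that of the canonical transcript, the count at 48 h was 2, since CCND3 and CDK2 dropped out. The nearest summits on either side of the 3 kb limit belonged to CCND3 at 2692 bp (fold enrichment 22.4, 72 h) and CDKN1B at 3431 bp (4.08, 72 h), and those on either side of 100 kb to CCND1 at 99347 bp (9.43) and CDKN1B at 100174 bp (7.93), both at 72 h.

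**Figure D1:**
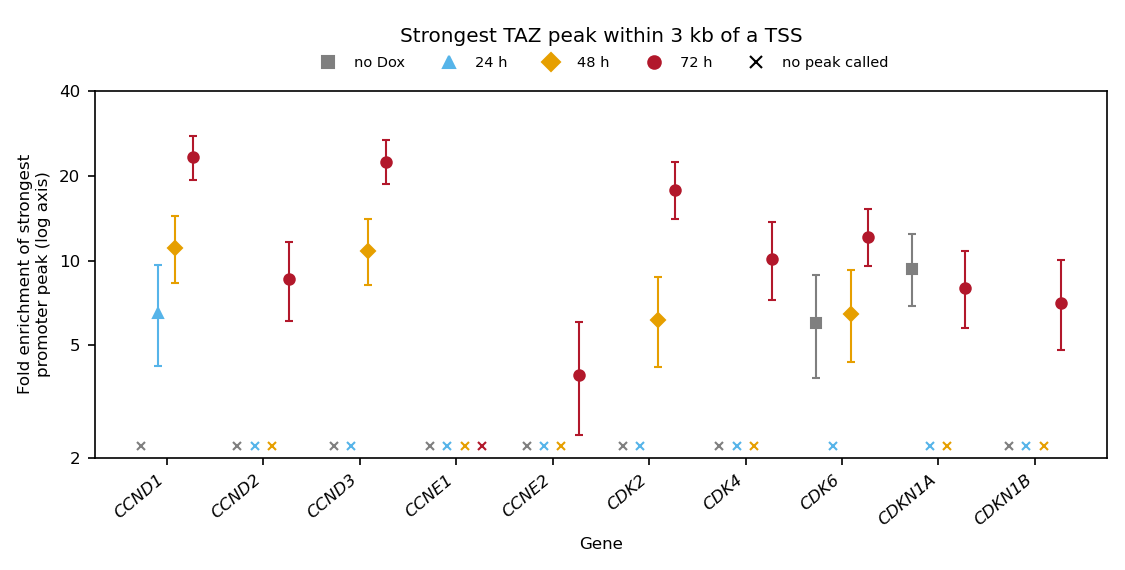
Fold enrichment (log axis) of the strongest promoter peak of each gene at no Dox, 24, 48 and 72 h, with error bars for the 95% Poisson interval of the summit pileup and crosses where no peak was called. At 72 h CCND1 and CCND3 stand highest, at 23.3 and 22.4, and CCNE1 has no point at any time.

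Fold enrichment is given below with the 95% Poisson interval of its summit pileup, which covers counting error only. CCND1, which encodes cyclin D1, had no promoter peak without Dox, and then 6.51 (4.22 to 9.63) after 24 h, 11.0 (8.33 to 14.4) after 48 h and 23.3 (19.4 to 27.7) after 72 h. The interval at 72 h lay above the earlier ones, which overlapped each other. The summits lay 2212 bp (24 h), 2192 bp (48 h) and 2205 bp (72 h) upstream of the canonical TSS (chromosome 11, region 69638126 to 69641404). At 48 h CCND1 had a second, weaker promoter peak with 3.65, at 126 bp upstream. CCND3, encoding cyclin D3, had no call without Dox and at 24 h, then 10.8 (8.20 to 14.1) after 48 h and 22.4 (18.6 to 26.8) after 72 h. That site (chromosome 6, 42045335 to 42046443) lay 104.0 kb upstream of the canonical TSS. Its 72 h summit was 2692 bp from the nearest alternative CCND3 TSS. A weaker peak, 57 bp from an upstream CCND3 TSS, was called at 72 h alone with 5.0 (3.44 to 7.02). At the canonical TSS of CCND3 a peak was called at 72 h alone, with 9.12 (6.32 to 12.8), 24 bp upstream. A further peak at 72 h, with 16.1, lay 171 bp from a CCND3 TSS and 3 bp from that of TAF8, so the promoters of these genes cannot be told apart there. CCND2, encoding cyclin D2, had 3 promoter peaks at 72 h with 4.37, 5.13 and 8.57, and none earlier.

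The E-type cyclins carried the weakest promoter signals. CCNE1 had no promoter peak at any time, as did 41.3% of protein-coding genes. CCNE2 had a single one at 72 h with 3.92 (2.41 to 6.08). Its −log10 q was 5.4, where the lowest value in the 72 h list was 2.03. The peak lay nearer to NDUFAF6 (139 bp) than to the CCNE2 TSS (702 bp).

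Among the kinases, CDK6 was bound earliest. Its promoter region (chromosome 7, 92831798 to 92836906) had 5.98 (3.85 to 8.93) without Dox, no call after 24 h, 6.47 (4.38 to 9.26) after 48 h and 12.2 (9.59 to 15.2) after 72 h. The intervals without Dox and at 48 h did not overlap each other on the genome, and the wide interval at 72 h covered both. CDK4 had a peak 67 bp upstream of its canonical TSS, also within 3 kb of a MARCHF9 TSS, with 10.1 (7.26 to 13.7) after 72 h and none before. CDK2 had 6.14 (4.18 to 8.73) after 48 h and 17.9 (14.0 to 22.4) after 72 h, with no call without Dox and at 24 h. That site lay 5.4 kb downstream of the canonical CDK2 TSS, in a UTR, and its nearest protein-coding TSS was that of PMEL at 1074 bp. It counted as a CDK2 promoter only through transcripts that are not protein-coding.

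Of the genes called without Dox, CDK6 had its higher promoter value at 72 h at another summit, so no change at a single site can be read from it. At CDKN1A the same site was called without Dox and at 72 h. The site lay 1.8 kb downstream of the canonical TSS, in the first part of the gene (chromosome 6, 36679919 to 36680830), with 7.97 (5.75 to 10.8) after 72 h and 9.35 (6.90 to 12.4) without Dox. It was called neither at 24 nor at 48 h. If its background scaled with that of the lists, a fold enrichment of 3.31 would have been enough at 24 h and 2.53 after 48 h, both below the interval measured without Dox. The intervals at 72 h and without Dox overlapped, so no difference between 72 h and no Dox was detectable at this depth. Further CDKN1A promoter peaks appeared at 72 h alone, with 6.80 at 123 bp upstream of the canonical TSS and 6.10 at 3.6 kb upstream, within 3 kb of another CDKN1A TSS. CDKN1B had a promoter peak at 72 h alone, 307 bp upstream of its canonical TSS, with 7.05 (4.8 to 10.0).

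At 72 h the promoters ranked CCND1 (23.3), CCND3 (22.4), CDK2 (17.9), CDK6 (12.2), CDK4 (10.1), CCND2 (8.57), CDKN1A (7.97), CDKN1B (7.05) and CCNE2 (3.92). Each interval overlapped that of the next gene in this order. The order rests on the 3 kb limit and on every annotated TSS. The summits of CCND1, CCND3 and CDK2 lay 2205, 2692 and 1123 bp from the nearest TSS of the gene. Within 1 kb the strongest peak at 72 h had 5.85 for CCND1 (690 bp) and 16.1 for CCND3 (171 bp, at TAF8), and CDK2 had none. Over the 11700 protein-coding genes with a promoter peak at 72 h the median of the strongest fold enrichment was 7.20 and the upper quartile 10.8. CCND1, CCND3, CDK2 and CDK6 lay above that quartile. Calls at no Dox and 72 h alone, as for CDKN1A, were made for 6.66% of protein-coding genes. The pattern of CDK6 was shared by 1.34%, that of CCND1 by 1.1%, and that of CCND3 and CDK2 by 5.7%.

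The next question concerned distal binding, over 3 kb and up to 100 kb from a TSS of the gene. Distal peaks gathered at CDK6, CCND3, CCND1, CDK2 and both inhibitor genes, and were few at CCND2, CCNE1 and CCNE2. Distal peaks numbered 4 without Dox, 7 after 24 h, 27 after 48 h and 78 after 72 h. They belonged to 4, 5, 8 and 10 of the 10 genes, where 28.5%, 19.9%, 54.2% and 87.7% of protein-coding genes had at least 1 such peak. The median per gene was 0, 0.5, 2 and 9 for these genes, and 0, 0, 1 and 4 over all protein-coding genes. CDK6 had the most, 15 after 72 h, but its TSS span 218296 bp, so that 418.3 kb were searched. Per 100 kb searched it had 3.59, below CDKN1A (4.45), CDK2 (4.40), CCND1 (4.35), CCND3 (4.17) and CDKN1B (3.87), and above CDK4 (2.91). CCNE2 (1.46), CCNE1 (1.43) and CCND2 (0.957) were below the median of all protein-coding genes, 1.66. The upper quartile over all genes was 3.0 and the 90th percentile 4.61, which none of the 10 exceeded.

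**Figure D2:**
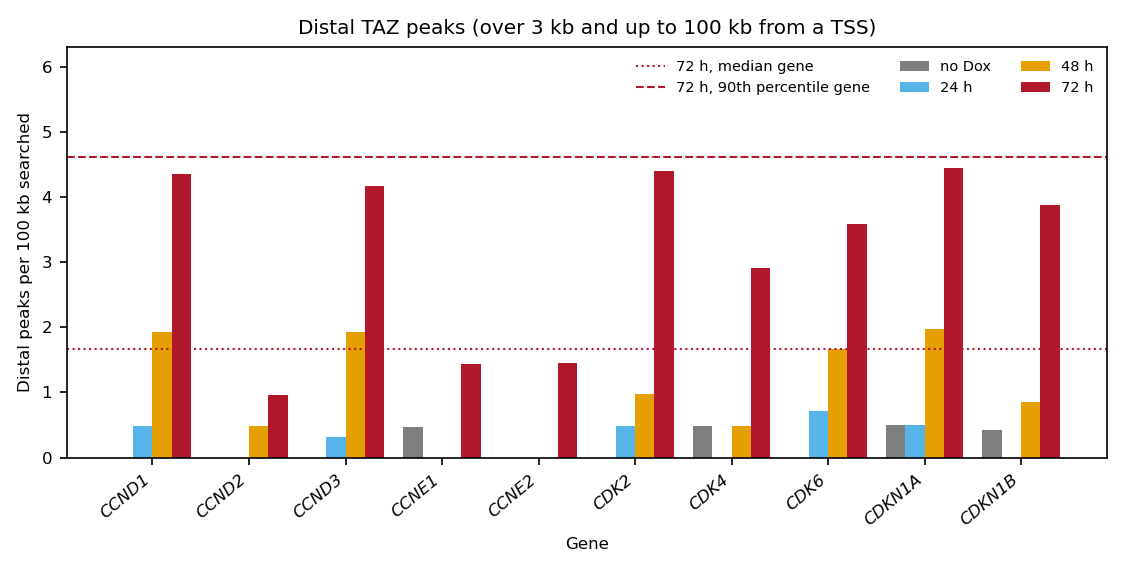
Number of distal TAZ peaks per 100 kb searched around each gene at no Dox, 24, 48 and 72 h, with lines for the median gene and the 90th percentile gene of all protein-coding genes at 72 h. CDKN1A, CDK2, CCND1, CCND3, CDKN1B and CDK6 reach between 3.59 and 4.45 after 72 h, below the 90th percentile of 4.61, and CCND2, CCNE1 and CCNE2 stay below the median of 1.66.

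Much of this binding lay at other genes. Of the 78 distal peaks at 72 h, 31 were within 3 kb of a TSS of another annotated gene, 24 were in introns, 21 in intergenic sequence and 2 in exons. Among all 38609 peaks at 72 h on the main chromosomes, 16861 lay within 3 kb of a TSS of any gene. Unlike the 78, that set includes peaks at a gene's own promoter. The nearest protein-coding TSS was that of the cyclin, kinase or inhibitor itself for 23 of the 78. No such share was computed over all genes. All 6 distal peaks of CDK4 were promoters of neighbours such as CYP27B1, EEF1AKMT3, TSFM and CTDSP2, and 6 of the 9 of CDK2 lay at promoters such as those of DGKA, PYM1, SUOX and RPS26. Both distal peaks of CCND2 lay at TIGAR, which encodes a fructose bisphosphatase. CDK6 differed from these, since 11 of its 15 distal peaks were inside CDK6 and it was the nearest gene for 13. The gene itself, from 92604921 to 92836573, fills much of the 418.3 kb searched. CCND1 had 7 intergenic peaks among 9, and CDKN1A had 6 among 9. Assignment by distance does not show which gene a distal site acts on.

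**Figure D3:**
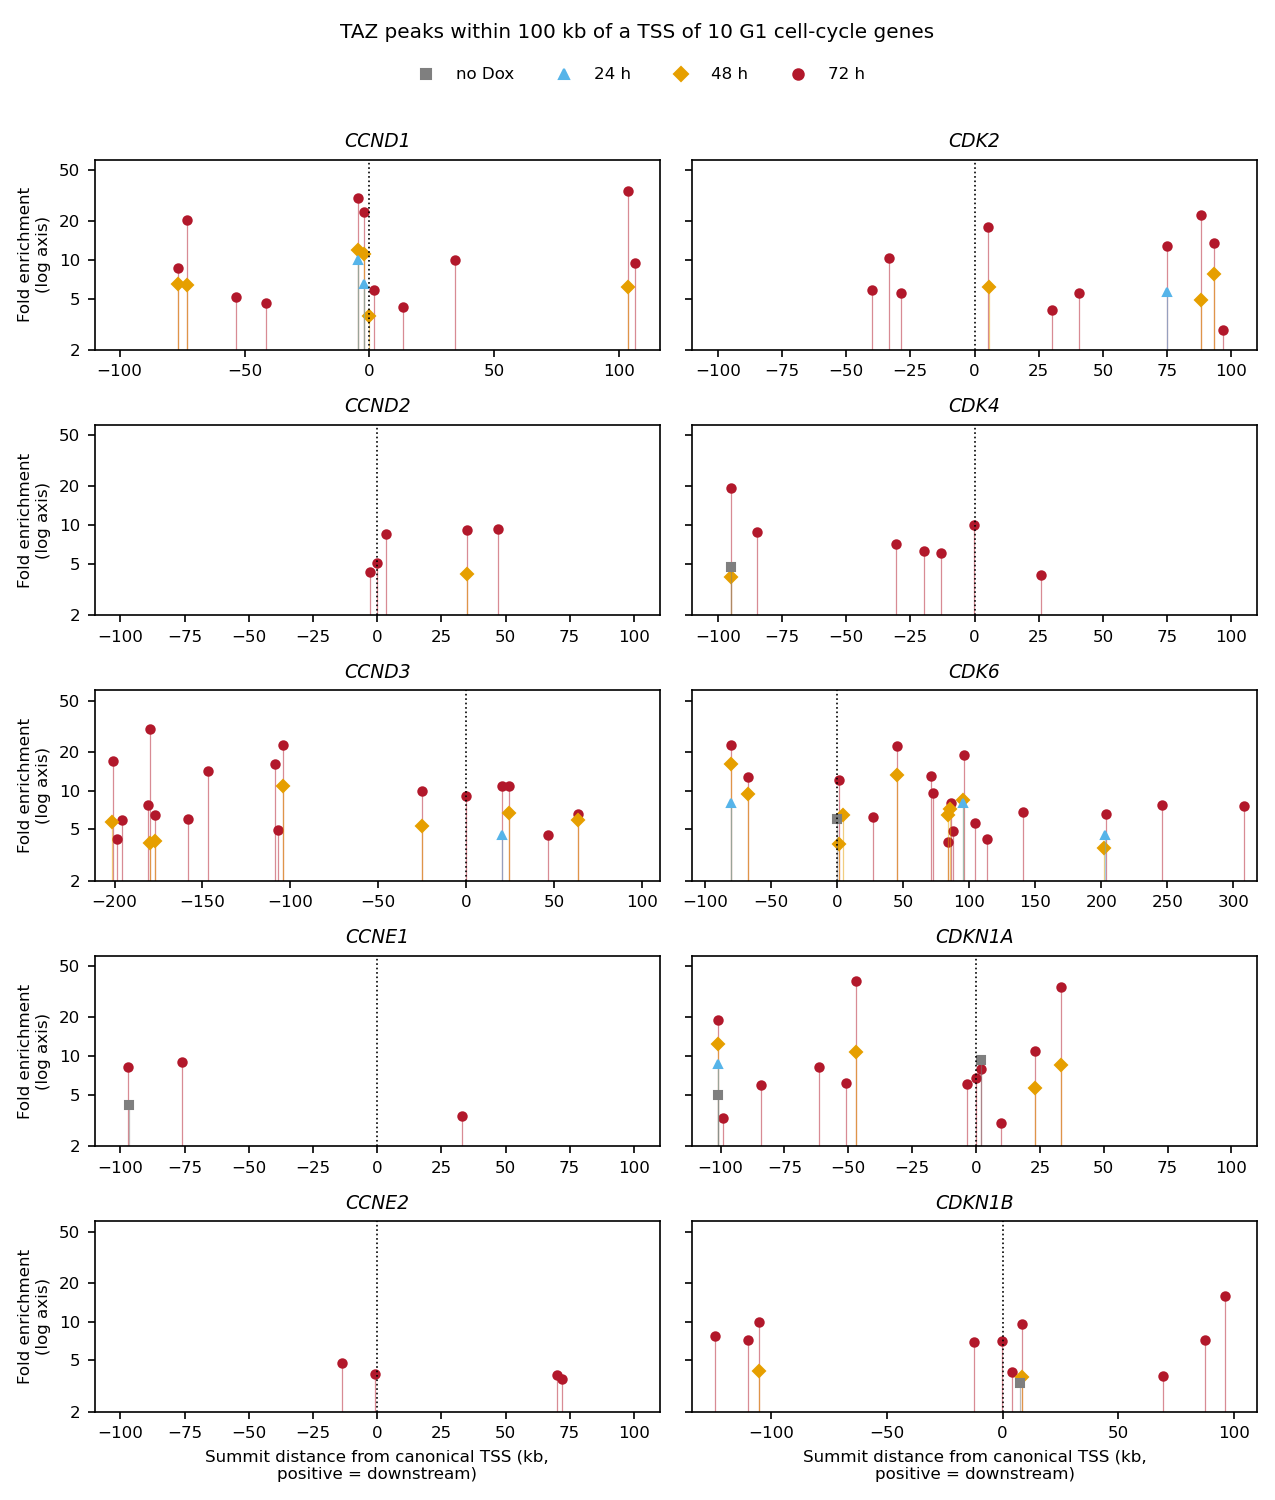
Fold enrichment (log axis) of every TAZ peak assigned to the 10 genes against the distance of its summit from the canonical TSS (kb, downstream positive), with grey squares for no Dox, blue triangles for 24 h, orange diamonds for 48 h and red circles for 72 h. CDK6 and CCND3 carry peaks across broad stretches because their TSS are far apart, and CCNE1 and CCNE2 carry few.

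CCND1 (ENSG00000110092.4, chromosome 11, 69641156 to 69654474, plus strand) carried strong sites on both sides. The intergenic site 4.5 kb upstream, whose paired TEAD consensus is printed above (chromosome 11, 69636130 to 69637385), was not called without Dox and then had 9.88 (6.85 to 13.8) after 24 h, 11.8 (9.51 to 14.6) after 48 h and 29.9 (26.1 to 34.2) after 72 h. At no Dox about 3.76 would have been enough. The site 103.4 kb downstream, towards FGF4, had 34.4 (29.1 to 40.3) after 72 h and 6.19 (4.58 to 8.19) after 48 h, a ratio of 5.55. That 73.1 kb upstream had 20.5 after 72 h and 6.43 after 48 h. Neither was called without Dox or at 24 h. In all 3 the interval at 72 h lay above that at 48 h.

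Around CDKN1A (ENSG00000124762.14, chromosome 6, 36676460 to 36687337, plus strand) the site 101.1 kb upstream of the canonical TSS (chromosome 6, 36577003 to 36578133), within 100 kb of another TSS of the gene and nearest to SRSF3, was the only region of the 97 that was called in every list. It had 5.01 (3.25 to 7.41) without Dox, 8.67 (5.58 to 12.9) after 24 h, 12.5 (9.84 to 15.7) after 48 h and 19.2 (15.8 to 23.1) after 72 h, and it held no TEAD consensus at its strongest summit. Calls in every list made up 1.03% of the 97 regions and 1.1% of all merged regions of the series. The sites 46.9 kb upstream and 33.1 kb downstream were first called at 48 h, with 10.8 (7.79 to 14.5) and 8.58 (6.39 to 11.3), and had 38.4 (32.6 to 45.0) and 34.5 (28.7 to 41.3) after 72 h. These are the highest values of any peak at the 10 genes. The second of these lies inside RAB44. All 3 flanking sites were highest at 72 h.

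At CDK6 (ENSG00000105810.10, chromosome 7, 92604921 to 92836573, minus strand) the introns held several sites in a row. The site 95.7 kb downstream of the canonical TSS (chromosome 7, 92740319 to 92741504) had no call without Dox, 8.04 (5.06 to 12.2) after 24 h, 8.51 (6.23 to 11.4) after 48 h and 19.1 (15.5 to 23.2) after 72 h. That 45.4 kb downstream was called with 13.2 (10.3 to 16.7) after 48 h and 22.4 (18.3 to 27.1) after 72 h. A site 80.4 kb upstream, in an exon of the non-coding gene CDK6-AS1, had 8.08 (5.38 to 11.7) after 24 h, 16.0 (12.5 to 20.2) after 48 h and 22.7 (18.1 to 28.1) after 72 h, and no call without Dox. CDK6 also held the only region called at both 48 and 72 h with a lower value at 72 h and the only region called at 48 h alone. Calls at 48 h alone made up 1.29% of all merged regions of the series. The site 84.1 kb downstream had 3.99 (2.30 to 6.51) after 72 h and 6.51 (4.46 to 9.20) after 48 h, within counting error of each other. Its summit lay 84112 bp downstream at 48 h and 83743 bp downstream at 72 h. The region 202.2 kb downstream was called at 48 h alone, with 3.57.

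**Figure D4:**
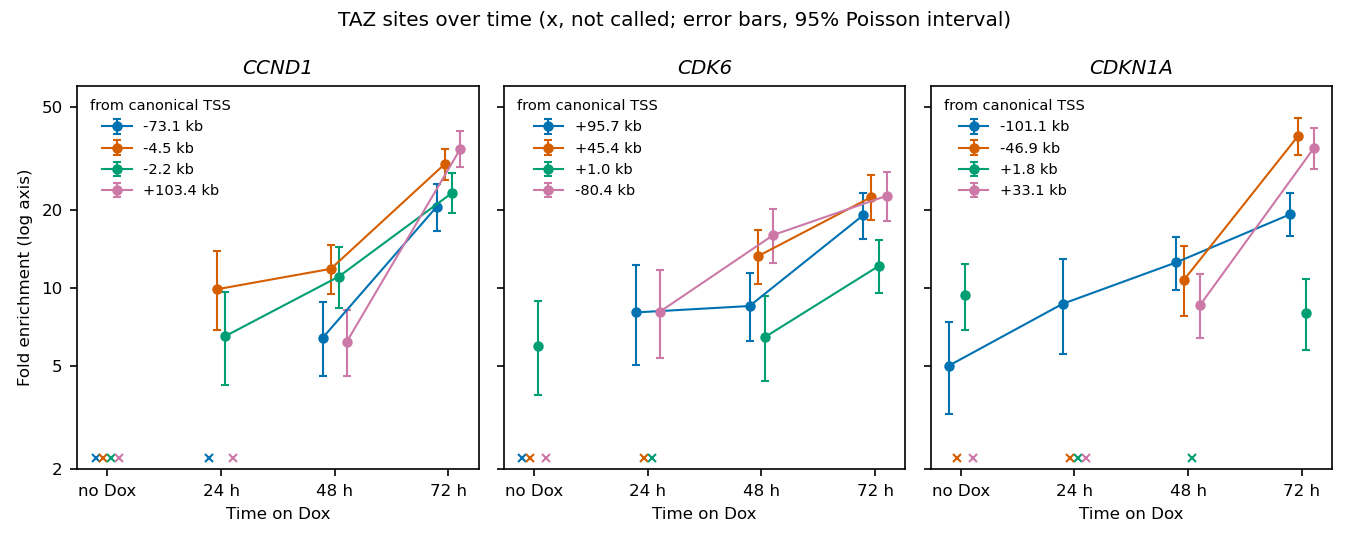
Fold enrichment (log axis) at 4 sites each of CCND1, CDK6 and CDKN1A over time on Dox, labelled by distance from the canonical TSS, with 95% Poisson intervals and crosses where a site was not called. Most sites are highest at 72 h, for example 38.4 at 46.9 kb upstream of CDKN1A, whereas the CDKN1A site 1.8 kb downstream has 7.97 after 72 h and 9.35 without Dox. The CDK6 points labelled 1.0 kb downstream come from a merged promoter region whose strongest summits differ in place between times.

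Of the remaining distal sites, the intron of C6orf132 assigned to CCND3 had the steepest increase, with 30.3 (25.5 to 35.8) after 72 h and 3.96 (2.59 to 5.81) after 48 h, a ratio of 7.67. The intergenic CDK2 site 88.3 kb downstream, nearest to RPS26, had 22.4 (18.5 to 26.8) after 72 h and 4.84 (3.6 to 6.39) after 48 h. The promoter of CTDSP2, 94.8 kb upstream of CDK4, had 4.74 without Dox, no call after 24 h, 3.94 after 48 h and 19.4 after 72 h. For CDKN1B the strongest distal peak was that at the DDX47 promoter with 15.8, at 72 h alone. The APOLD1 promoter 8.4 kb downstream had 3.34 without Dox, no call after 24 h, 3.73 after 48 h and 9.59 after 72 h. Its summit without Dox lay elsewhere in the merged region, 7494 bp downstream, against 8435 bp at 48 h and 8436 bp at 72 h. The C19orf12 promoter, 97.0 kb upstream of CCNE1, had 8.22 after 72 h and 4.15 without Dox and was called at no time between.

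The peaks were then followed across the 4 times. Overlapping intervals were merged into 97 regions, 18 of them promoter and 79 distal. Calls at 72 h alone made up 61 regions (62.9%), against 66.5% of all merged regions of the series, and calls at 48 and 72 h made up 22 (22.7%), against 21.2%. All 6 peaks without Dox, all 8 after 24 h and 32 of 33 after 48 h overlapped a peak at 72 h. For the whole lists these shares were 89.3%, 96.7% and 95.3%. Among the 8 found after 24 h, 5 were met again in the 48 h list (62.5%, exact 95% interval 24.5 to 91.5), against 92.3% of the whole list. The 3 that were not met again were the promoters of MED20 (near CCND3) and RPS26 (near CDK2), with 4.53 and 5.64 after 24 h, and a CDK6 intron site with 4.55. Both promoter peaks without Dox overlapped no peak at 24 or 48 h. That was the usual outcome, since 20.1% of the whole list without Dox was met again after 24 h and 32% after 48 h. In 30 regions called at 72 and at 48 h, fold enrichment was higher at 72 h in 29, with a median ratio of 2.09, against 1.88 over 10978 such regions of the series.

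The sequence at the summit, which the choice of peaks did not use, differed with the history of a site. A TEAD consensus lay within 100 bases of the strongest summit in 19 of 34 regions called at 24 or 48 h (55.9%, exact 95% interval 37.9 to 72.8). It lay in 12 of 63 regions called at neither time (19%, 10.2 to 30.9). Over all regions of the series the shares were 50.9% and 28.9%. Within 3 kb of a TSS of any gene the shares were 6 of 12 and 5 of 37, and elsewhere 13 of 22 and 7 of 26. In the series these shares were 49% and 19% near a TSS, and 51.5% and 38.9% elsewhere. TGANTCA was found in 6 of the 34 and 11 of the 63 regions, that is 17.6% and 17.5%, against 26.4% and 18.5% of the series. The earlier regions were also stronger, with a median fold enrichment of 13.2 against 6.11, and had a lower median GC content of 50.8% against 57.7%. The whole series showed the same, with a median fold enrichment of 12.9 against 6.11 and a median GC content of 44.3% against 52.7%. Regions of 1 gene share their surroundings and are not independent. Of the RefSeq promoters (GRCh38.p14, 250 bases before to 50 after the start), 9 of the 10 genes were matched, and that of CCND3 alone held CATTCC or GGAATG, as did 14% of 35116 promoters. TGANTCA was found in 0 of the 9, and in 7.71% of all.

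**Figure D5:**
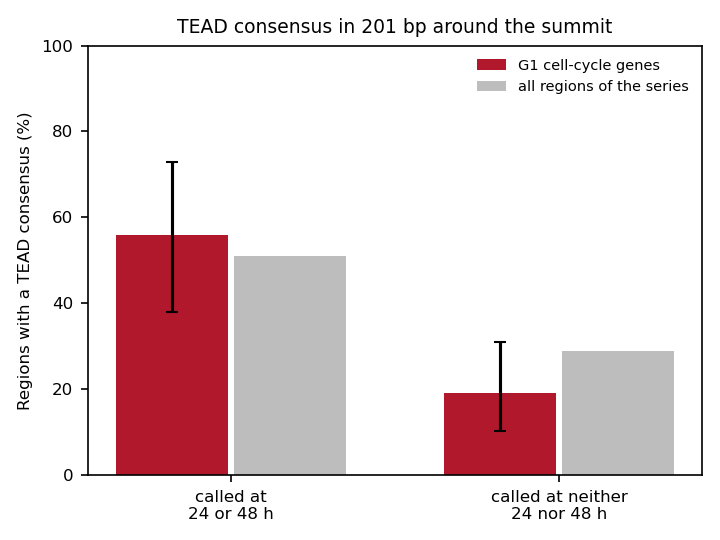
Share (%) of merged regions with CATTCC or GGAATG within 100 bases of the strongest summit, for regions of the 10 genes (red, exact 95% interval) and for all regions of the series (grey), by whether they were called at 24 or 48 h. The shares at the 10 genes were 55.9% and 19%, and those of the series 50.9% and 28.9%.

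A list of 37 other genes of the G1 to S transition was taken for comparison, among them RB1 and its relatives, the E2F and DP factors, other CDK inhibitors and the replication licensing genes CDC6 and CDT1. Promoter peaks were called for 6 of them without Dox, 2 after 24 h, 5 after 48 h and 28 after 72 h. Over all protein-coding genes the shares were 9.4%, 2.55%, 9.09% and 58.4%. TFDP2, a dimer partner of E2F factors, had 8.14, 10.2, 11.2 and 33.6 over the 4 lists. CKS1B, a small CDK-binding protein that helps SKP2 to degrade CDKN1B, had 8.58, 7.67, 13.3 and 29.7. These were the only genes of the list called in every list. SKP2, the ubiquitin ligase subunit itself, had 8.25 after 48 h and 26.5 after 72 h, with no call without Dox and at 24 h. RBL2, a relative of RB1, and LIN54, both among the 5 strongest of the list at 72 h, had 17.7 and 15.0 after 72 h alone. No promoter peak was called at any time for CDK3, CDK7, CDKN1C, CDKN2A, CDKN2B, E2F1 or TFDP1. CDKN2A and CDKN2B also had 0 distal peaks within 100 kb in every list, as did E2F3. At 72 h 87.7% of protein-coding genes had at least 1. MCF10A cells are known to lack the locus of CDKN2A and CDKN2B, and whether that accounts for the missing peaks was not tested.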

How the data were processed

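TAZ ChIP-seq and IgG libraries were made from 4 conditions, 1 library of each per condition (8 in all). Per the methods of the study, reads were quality-trimmed, mapped to hg38 with BWA and MACS2 peaks kept below a false discovery rate of 0.01. Neither versions nor the use of IgG as control are given in the sources used here. The deposited lists give interval coordinates and summit offset, a peak score, fold enrichment as a ratio with a pseudocount of 1, and −log10 of the p-value and q-value, all computed by the authors. Depth is not listed. The pileup and background at each summit were solved from the fold enrichment and p-value, which returned 100% of the deposited p-values within 0.01, and gave the Poisson intervals. The solution was tested on simulated data.

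Coordinates are 1-based on hg38, and all list sequences were present in the reference used. TSS came from GENCODE 44 (Python 3.11.15, pandas 2.3.3, scipy 1.17.1). Peaks of different lists were merged where they shared 1 bp or more. At most 1.9% of the 50-base words of a gene's promoter occurred in alternate or unplaced sequences. The genes, lists and rules were chosen with earlier results of these data known. Named were all 10 genes, neighbours of a described peak, the other G1 to S genes called in every list or among the 5 strongest at 72 h, and 3 TAZ targets. Genes of that list without a promoter peak or without a distal peak, and examples given at groups of peaks, were chosen after their values were seen. The sequences of 3 regions that met the rule for printing are not reported here.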

Additional observations from a re-analysis of the deposited data

How the results depend on the processing

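Each condition had 1 TAZ library, so no library could be left out. No paired analysis was possible because no group had more than 1 library. Of 66 values under alternative settings, 45 stayed within 1.5 times the value reported. A promoter of 1 kb left 1 gene of the 10 without Dox, 0 at 24 h and 2 at 48 h, and 0 and 3 of the other G1 to S genes at 24 and 48 h. The TSS of the canonical transcript alone, added after seeing the data, left 2 genes at 48 h. A window of 50 kb left 1, 4, 13 and 43 distal peaks at no Dox, 24, 48 and 72 h, and the nearest-gene rule 0, 4, 11 and 23. A −log10 q of at least 5 left 1 distal peak without Dox. Scaling the pileups to the lowest background with 1 threshold for all lists removed no promoter call of the 10 genes. An overlap of 50% of both intervals left 19 regions called in at least 2 lists, against 35. With 50 bases on either side of the summit a TEAD consensus lay in 0 peaks without Dox and an AP-1 consensus in 10 at 72 h. Over whole peaks TEAD was found in 2 without Dox and 52 at 72 h, and AP-1 in 34 at 72 h, against 1, 31 and 16. A site missing from a list may lie below the height needed there.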
